A study of Mesocricetus auratus with 7 samples.

Results

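Genes whose reads were divided among several positions were examined in the mRNA of golden hamster oocytes. They comprise 96 of the 22285 rows of the deposited table and were selected on measured values. In each of them the read count carried a fractional part other than 0 or 0.5 in all 7 libraries. Such a fraction arises when a read is divided into 3 or more parts, among its alignments or overlapping gene models, so that a row receives only part of it. Of 108 rows with the fraction in every library, 10 were left out because they were among the 200 most abundant in wild-type and heterozygous oocytes. A further row was left out because its KO libraries lay over 1.4-fold beyond all others, and 1 more because its levels followed a strict order of genotypes. The selection therefore used the level and the genotype contrasts, and values between genotypes are given for description.

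RNA was sequenced from fully grown germinal vesicle (GV) oocytes, the stage arrested before meiotic maturation, of Mov10l1 wild-type (WT, n = 2), heterozygous (HET, n = 2) and homozygous mutant (KO, n = 3) females. Mov10l1 encodes an RNA helicase required for making piRNAs, small RNAs that guide PIWI proteins to transposon transcripts. HET and KO animals carried an allele without exon 20, made by CRISPR-Cas9 and passed on by 1 founder female, whose descendants had been crossed to outbred WT animals. Each library held 6 to 12 oocytes of 1 animal. The WT animals were 37 (WT 1) and 17 weeks old (WT 2), the HET animals 40 (HET 2) and 36 weeks (HET 3), and the KO animals 45 (KO 1), 40 (KO 2) and 36 weeks (KO 3).

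Many genes exist in nearly identical copies. Replication-dependent histone genes lie in clusters of multiple copies that encode almost the same protein, and small, strongly expressed mRNAs are often copied back into the genome as processed pseudogenes. A short read from such a family aligns equally well to several places. Counting then either drops the read, assigns it to every copy or, as here, gives each copy a share, and the count of a single copy then depends on reads that other copies may have produced. Oocytes store maternal mRNAs for maturation and for the first divisions of the embryo, histone mRNAs among them.

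Total counts lay between 24242442 and 33956304 per library. Mov10l1 itself had 13.8 and 36.2 CPM (WT), 15.9 and 18.8 (HET), and 4.60, 6.40 and 3.26 (KO), where CPM are counts per 1000000 counts of the library, with no overlap of KO with the others. Kit, a receptor of the growing oocyte, had 50.1 to 134 CPM. Of the markers of granulosa cells, which surround the oocyte, Inha had at most 1.46 CPM, Cyp11a1 at most 3.48 and Inhba 0.0318 to 13.8, the latter highest in HET 3 and KO 2 (12.6). The part of such cells in the values below was not tested.

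A fraction of this kind was common in single libraries but rarely recurred in all of them. Between 1005 and 1185 rows carried it in a library, which is 8.41 to 9.77% of the rows with a count there, and 3805 rows carried it in at least 1 library. The 108 rows that carried it everywhere were 1.10% of the 9800 rows with a count in all 7 libraries. The form of the fraction differed among the 96 genes. In 80 of them (83.3%) the decimals were not multiples of 1/4, 1/6 or 1/12 in every library. Multiples of 1/4 alone accounted for the decimals of 3 genes, multiples of 1/6 for 3 and of 1/12 for 10. The fraction shows that at least 1 read was divided and not what part of a gene's reads it was. A part of 1/4 can also come from 2 alignments that each overlap 2 gene models, so that the number of loci itself was not measured. With a fraction required to differ by over 0.02 from 0 and 0.5, in place of 0.001, 85 rows and 74 of the genes remained.

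The count table names genes by Ensembl identifier. Symbols or descriptions were found for 12 of the 96 in the published gene lists of the study, which hold genes of testis or oocyte comparisons and are no sample of the genome. All but 3 of these 12 belonged to the histones (7) or the dynein light chains (2). The remaining 3 were Slc39a1, a zinc transporter of the plasma membrane, Amt, the aminomethyltransferase of the mitochondrial glycine cleavage system, and Myh11, the myosin heavy chain of smooth muscle. Histones were frequent by this criterion: of 29 listed histone rows, 17 had a count in all libraries and 7 (24.1%) carried the fraction in all of them, against 15 of all 1179 listed identifiers (1.27%). Both listed dynein light chain rows carried it. Among the 12 gene families searched by symbol, which 6 of the 96 genes have, histones alone had members (3 of 12 rows with a symbol). None of the 6 rows with the symbol of a ribosomal protein, a family known for its many pseudogenes, was among the 96, but 84 of the 96 had no symbol or description and could not be searched.

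The 96 genes spanned a wide range of levels, shown in the plot of levels by library. Mean levels over the libraries ran from 0.0166 to 694 CPM with a median of 1.94, against 13.97 for all rows with a count in every library. These levels are shares of the reads and were not divided by transcript length. Of the genes, 9 reached at least 100 CPM, 21 lay between 10 and 100, 27 between 1 and 10, and 39 below 1. At least 100 counts in every library were present for 33 genes, whereas 17 stayed under 10 counts everywhere. The 10 most abundant genes held 75.4% of the summed level.

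**Figure D1:**
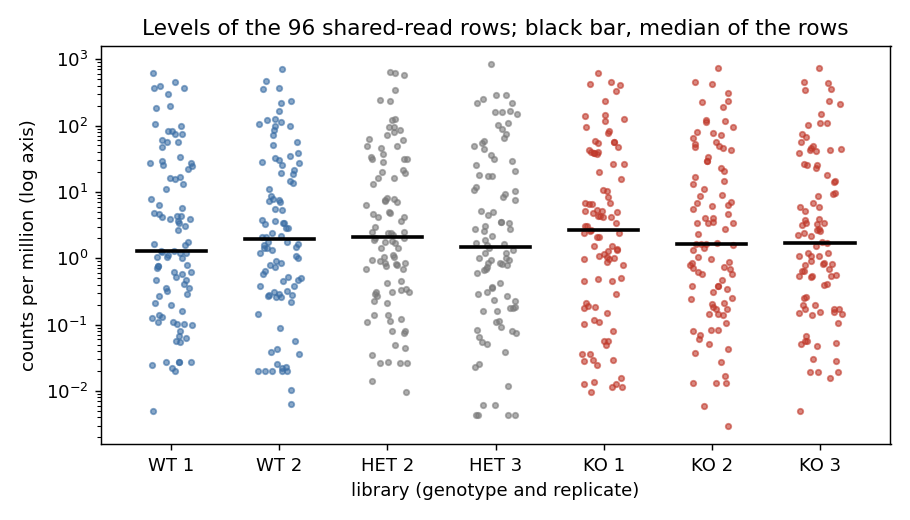
Each point is 1 of the 96 shared-read genes in 1 library, in CPM on a log axis, coloured by genotype (WT blue, HET grey, KO red), and black bars mark the median of the genes. The libraries cover the same span of levels, and the medians lie between 1.27 (WT 1) and 2.62 (KO 1).

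Summed over the 96 genes, the level by library total differed little between libraries. It was 3954 and 3851 CPM (WT), 3995 and 3701 (HET), and 3976, 3905 and 4009 (KO). Averaged by genotype it came to 3902 ± 73.4 CPM for WT (mean ± SD, n = 2), 3848 ± 208 CPM for HET (n = 2) and 3963 ± 53.0 CPM for KO (n = 3), and the groups overlapped. This overlap depended on the scaling: by median-of-ratios size factors the sums were 3866 and 3565 normalised counts per 1000000 of the mean library total (WT), 4082 and 3426 (HET), and 4042, 3919 and 4010.1 (KO), with all KO libraries above both WT libraries and between the HET libraries. Without the 10 most abundant genes the means were 943 ± 83.0, 974 ± 39.3 and 969 ± 89.8 CPM. In libraries made from pooled oocytes a lower share cannot be told apart from fewer transcripts per oocyte or from more RNA of other genes.

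The most abundant gene, ENSMAUG00000008752, had 628 and 698 CPM (WT), 585 and 844 (HET), and 620.4, 738 and 741 (KO). Its decimals were multiples of 1/4 throughout. It was the gene nearest to the limit set by the 200 most abundant rows, with 689 CPM over WT and HET against 758 for the lowest of those rows. The HET libraries were its lowest and highest, and those of the other genotypes lay between them.

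The next pair, ENSMAUG00000000019 and ENSMAUG00000000025, also had its extremes in the HET libraries, but in the opposite direction. ENSMAUG00000000019 had 389 and 467 CPM (WT), 609 and 288 (HET), and 416, 457 and 439 (KO). ENSMAUG00000000025 had 366 and 365 CPM (WT), 632 and 167 (HET), and 408, 425 and 459 (KO). Both were highest in HET 2 and lowest in HET 3, both carried decimals in multiples of 1/12, and their log2 levels went together over the 7 libraries (Pearson r = 0.94). With n = 7 this r is a description, and both values come from the same libraries. The SD of ENSMAUG00000000025 was 329 CPM between the HET libraries, 0.571 between the WT and 25.8 between the KO libraries.

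The other 7 of the 10 most abundant genes showed no common pattern. ENSMAUG00000022064 had 448 and 358 CPM (WT), 230.3 and 285 (HET), and 327, 227 and 356 (KO). ENSMAUG00000000005 had 362 and 166 CPM (WT), 340.3 and 215 (HET), and 451, 309 and 342 (KO). WT 1 was highest for the former, KO 1 for the latter. ENSMAUG00000014444 had 293 and 215 CPM (WT), 245 and 250.3 (HET), and 143, 236 and 211 (KO), with KO 1 lowest. ENSMAUG00000004953 ranged from 126 (HET 2) to 237 CPM (WT 2) and ENSMAUG00000003983 from 113 (KO 2) to 186 CPM (WT 1). ENSMAUG00000005493 ranged from 85.5 (HET 2) to 162 CPM (HET 3), and ENSMAUG00000015762, with decimals in multiples of 1/6, from 72.2 (HET 2) to 111 CPM (WT 2). How often the libraries of a genotype lie apart from those of another over all rows was not determined. The orders below, among groups of 2 or 3 libraries, are therefore descriptions. In ENSMAUG00000014444 both HET libraries lay above the 3 KO libraries, and the WT libraries overlapped both groups. In ENSMAUG00000022064 both WT libraries lay above all others, though only by 358 against 356 CPM. In ENSMAUG00000005493 the WT libraries lay below the KO libraries and in ENSMAUG00000015762 above them, with HET 2 and HET 3 differing by more than WT and KO in each.

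Dynein light chains of the LC8 type are small and strongly conserved subunits of the dynein motor that also bind many other proteins. The row described as LC8-type 1, ENSMAUG00000009393, had 33.2 and 30.2 CPM (WT), 61.7 and 29.0 (HET), and 39.8, 49.6 and 48.3 (KO). A second row, described as cytoplasmic dynein light chain 1, ENSMAUG00000008734, had 4.20 and 3.43 CPM (WT), 7.40 and 3.41 (HET), and 4.84, 6.16 and 5.90 (KO). The first row held 7.89 to 8.80 times the count of the second in every library, although the levels of both changed over more than a 2.1-fold range. The row without a name, ENSMAUG00000016015, followed the second row most closely (r = 0.9995 over 7 libraries). Its count exceeded that of ENSMAUG00000008734 by 0.5 to 5.5 reads, each time a multiple of 0.5, so that in all 7 libraries the rest of their decimals was equal. Together the 3 rows summed to 41.7 and 37.1 CPM (WT), 76.7 and 36.0 (HET), and 49.6, 62.0 and 60.2 (KO). The 3 KO values lay above both WT values and between the HET values, with means of 39.4 ± 3.29 (WT), 56.3 ± 28.8 (HET) and 57.3 ± 6.75 CPM (KO).

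Histone H2B, a core protein of the nucleosome, gave the largest named set. The row of histone H2B type 1 with the highest level, ENSMAUG00000017510, had 7.85 and 28.8 counts (WT), 31.8 and 18.3 (HET), and 53.4, 25.0 and 30.2 (KO). H2bc3 (ENSMAUG00000018201) had 2.35 and 11.8 counts (WT), 6.84 and 2.30 (HET), and 34.6, 4.75 and 4.36 (KO). A further H2B type 1 row, ENSMAUG00000018375, had 2.49 and 8.32 counts (WT), 9.34 and 2.05 (HET), and 25.3, 10.6 and 6.89 (KO). KO 1 was the highest library in all 3, by 3.56-fold in H2bc3 and 3.12-fold in ENSMAUG00000018375 over the next library in CPM.

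A pair of rows that the gene lists hold without a description moved with them. ENSMAUG00000018325 had the same count as ENSMAUG00000018375 in WT 1, WT 2 and HET 2 and differed from it by multiples of 0.5 reads in the other libraries, by at most 4.5. ENSMAUG00000017554 had 24.0 and 90.4 counts (WT), 75.3 and 22.7 (HET), and 132, 55.8 and 71.8 (KO). Between the 5 rows, r over the 7 libraries was 0.82 to 0.98. Their summed level was 1.62 and 4.69 CPM (WT), 4.39 and 1.72 (HET), and 10.5, 3.17 and 4.47 (KO), so that KO 1 exceeded the next library 2.24-fold. These 5 were not the only genes with this pattern, since ENSMAUG00000008751 and ENSMAUG00000006005 (r = 0.93 and 0.91 with ENSMAUG00000017510) and ENSMAUG00000000009 (r = 0.92 with ENSMAUG00000018375) were also highest in KO 1. The KO mean was 6.05 ± 3.91 CPM (SD, n = 3) and 3.82 ± 0.917 without KO 1, a value added after the data were seen, within the WT and HET range of 1.62 to 4.69. The most abundant listed H2B row, H2bc18 (ENSMAUG00000005217), carried the fraction in 6 libraries and so fell just outside the selection. It did not share the high value of KO 1, with 22.0 CPM there against 25.6 and 53.5 (WT) and 58.4 and 11.4 (HET). The other listed H2B rows with counts outside the selection were divided. ENSMAUG00000017394 and ENSMAUG00000017623, which also carried the fraction in 6 libraries, were highest in KO 1, at 1.47 and 0.667 CPM. H2bc1 (ENSMAUG00000001528), with the fraction in 6 libraries too, was highest in HET 2 (0.116 CPM, against 0.0955 in KO 1), and the H2B type 1-like row ENSMAUG00000005836 in WT 2 (0.353 CPM, against 0.121 in KO 1).

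**Figure D2:**
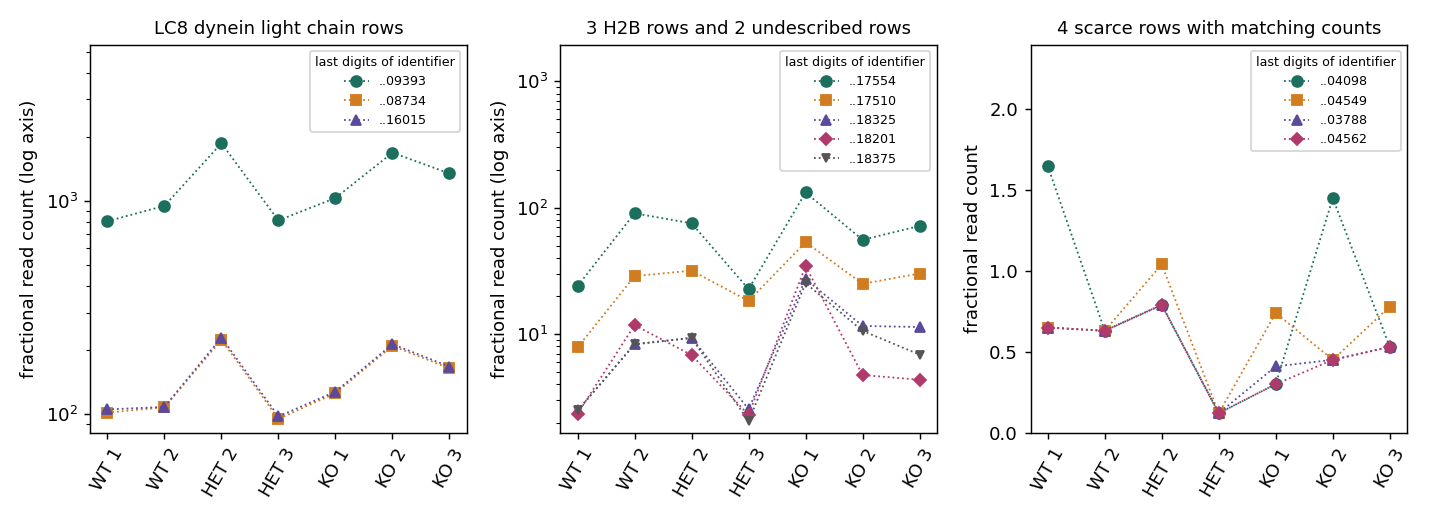
Fractional read counts in the 7 libraries for the LC8 dynein light chain rows (left, log axis), 3 H2B rows with 2 rows that have no description (centre, log axis) and 4 scarce rows with matching counts (right, linear axis); dotted lines only join the points of 1 row. ENSMAUG00000016015 and ENSMAUG00000008734 lie nearly on top of each other, all 5 rows of the H2B panel peak in KO 1, and several of the scarce rows coincide in most libraries.

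The other histone genes of the selection were not highest in KO 1. A histone H4 row, ENSMAUG00000011443, another core histone, had 93.2 and 45.2 counts (WT), 31.1 and 33.3 (HET), and 53.3, 19.9 and 30.4 (KO), highest in WT 1. A histone H3 row, ENSMAUG00000018261, had 15.2 and 14.8 counts (WT), 9.44 and 10.4 (HET), and 11.7, 8.38 and 5.42 (KO). The linker histones H1f4 (ENSMAUG00000018344) and H1f3 (ENSMAUG00000018389), which bind the DNA between nucleosomes, were at their lowest in KO 1, with 0.750 and 0.250 counts, against 3.07 to 7.33 and 1.07 to 2.67 counts in the other libraries. Their counts differed by multiples of 0.5 reads in all 7 libraries. Outside the selection, a peak in KO 1 was not limited to H2B: a further H4 row, ENSMAUG00000017348, had 30 counts in KO 1 and at most 1.73 elsewhere, and an H2A type 1-E row, ENSMAUG00000017587, had 0.713 CPM in KO 1 and 0.516 in the next library. At 7.33 counts or fewer, differences between genotypes were not detectable in H1f4 and H1f3 at this depth.

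The remaining named genes were variable. Amt (ENSMAUG00000009244) had 64.2 and 353 counts (WT), 212 and 303 (HET), and 137, 114 and 108 (KO). Myh11 (ENSMAUG00000020559) had 3.92 and 49.8 counts (WT), 27.8 and 39.3 (HET), and 13.2, 6.17 and 22.3 (KO). Both were highest in WT 2 and HET 3 and lowest in WT 1, and WT and KO overlapped in both. Both HET libraries lay above all 3 KO libraries in CPM, at 7.01 and 10.8 against 3.35 to 5.29 for Amt and 0.921 and 1.41 against 0.182 to 0.801 for Myh11. Slc39a1 (ENSMAUG00000018122) had the widest range of all 96 genes, with 104 and 1.33 counts (WT), 126 and 26.7 (HET), and 133, 496 and 76.1 (KO). WT 2 was lowest by far and KO 2 highest.

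Genes with matching counts formed 3 groups with 8 members in all, where a match meant counts equal within 0.011 in at least 3 libraries. This criterion was chosen after the values were seen. The largest group held ENSMAUG00000003788, ENSMAUG00000004098, ENSMAUG00000004549 and ENSMAUG00000004562, which all had 0.630 counts in WT 2 and 0.120 in HET 3. ENSMAUG00000003788 and ENSMAUG00000004562 agreed in 6 libraries and differed by 0.11 counts in KO 1. ENSMAUG00000004098 exceeded ENSMAUG00000004562 by 1 read in WT 1 and in KO 2 and equalled it elsewhere. The second group, ENSMAUG00000004121 and ENSMAUG00000014862, agreed in HET 2 (2.39 counts), HET 3 (4.97) and KO 1 (1.45) and differed by at most 2 reads. The third was the H2B type 1 row ENSMAUG00000018375 with ENSMAUG00000018325, which has no description. Equal decimals show that counts hold the same fractions, but the deposited table does not show which reads gave them.

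Likeness between the genes was described by Pearson r of log2 levels. Among the 83 genes that averaged at least 3 counts, the median r of the 3403 pairs was 0.02 over the 7 libraries, a median over positive and negative values that does not measure their strength, and 10 pairs reached 0.95. Besides the LC8 rows and ENSMAUG00000018325 with ENSMAUG00000018375, these included ENSMAUG00000005250, ENSMAUG00000004987 and ENSMAUG00000005154. ENSMAUG00000005250 had 12.8 and 55.9 counts (WT), 72.4 and 11.6 (HET), and 3.83, 24.0 and 23.1 (KO). ENSMAUG00000004987 had 8.52 and 37.4 counts (WT), 56.9 and 8.12 (HET), and 2.83, 16.1 and 15.1 (KO). Both were highest in HET 2 and lowest in KO 1, the library in which the 3 H2B genes of the selection were highest, with r = 0.997 between them. The pairs were picked for their r, and the rows may hold the same divided reads.

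The lowest mean levels were those of ENSMAUG00000003788 (0.0179 CPM), ENSMAUG00000004562 (0.0173 CPM) and ENSMAUG00000005731 (0.0166 CPM). ENSMAUG00000005731 had 0.530 and 0.730 counts (WT), 0.820 and 0.330 (HET), and 0.350, 0.100 and 0.440 (KO). Counts below 1 in every library, as in these 3 genes, consist of parts of reads alone. A count under 1 in at least 1 library was present for 17 genes, and 12 had a count of 0 in at least 1 library once rounded to whole numbers for the tests. None was rounded to 0 in every library.

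The spread between animals of a genotype was set beside that of other rows of similar level. For each row the absolute log2 ratio was averaged over the replicate pairs, and the 96 genes were set beside the 9481 other rows that had a count in every library and a mean within the range of the 96. The median ratio was 0.38 for the 30 genes of at least 10 CPM, against 0.41 for 5245 other rows. It was 0.47 for the 27 genes between 1 and 10 CPM, against 1.16 for 3520 other rows, and 1.10 for the 39 genes below 1 CPM, against 1.56 for 716 other rows. A divided read adds less than 1 to a count, and what part of a gene's reads was divided was not measured. The selection also required a divided read in all 7 libraries, whereas the other rows needed only some count in each. It still kept 17 genes with under 1 count in at least 1 library. The part of these differences in the spread was not tested. The lower values below 10 CPM are therefore a description, and nothing is read from them.

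**Figure D3:**
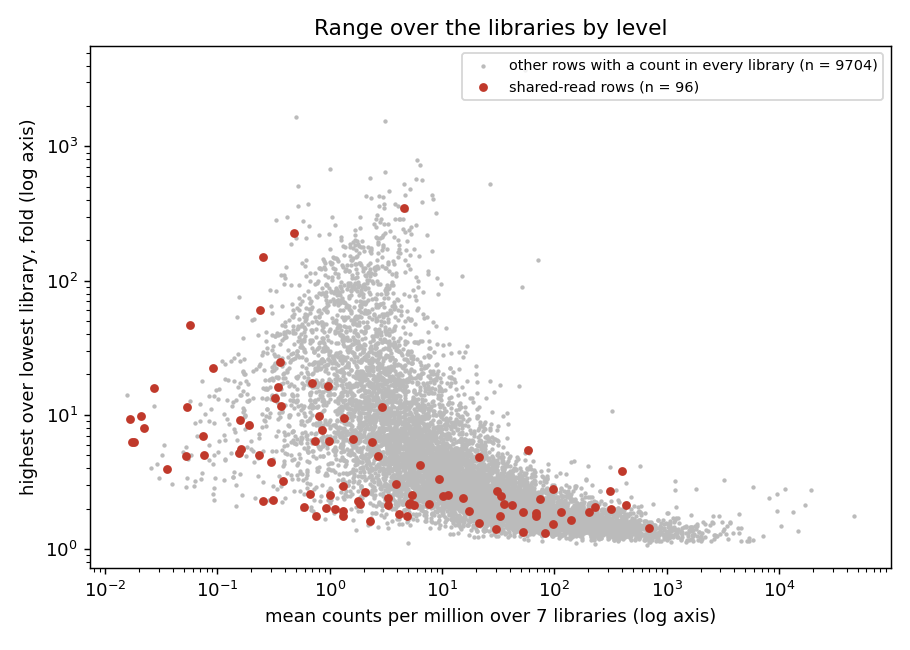
The ratio of the highest to the lowest of the 7 libraries is plotted against the mean CPM, on log axes, for the 96 shared-read genes (red) and the 9704 other rows with a count in every library (grey). Above 10 CPM the red points lie within the grey cloud, between 1.31 and 5.50; ratios at the left rest on few counts.

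The 3 narrowest ranges were found in genes above 10 CPM. ENSMAUG00000001687 ranged from 74.0 (HET 3) to 96.9 CPM (WT 2), a 1.31-fold range. ENSMAUG00000015943 ranged from 45.1 (HET 2) to 60.4 CPM (WT 1), 1.34-fold, and ENSMAUG00000015927 from 25.1 (WT 1) to 35.1 CPM (WT 2), 1.4-fold. The 5 widest ranges were those of Slc39a1, ENSMAUG00000010375, ENSMAUG00000012044, ENSMAUG00000005154 and ENSMAUG00000005268. All 5 had under 3 counts in their lowest library, and no fold is given for them.

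The widest ranges did not follow genotype. ENSMAUG00000010375 had 24.9 and 0.330 counts (WT), 20.8 and 0.170 (HET), and 35.7, 2.75 and 4.18 (KO). ENSMAUG00000012044 had 0.120 and 23.2 counts (WT), 2.29 and 19.5 (HET), and 0.930, 2.84 and 3.95 (KO). WT 2 and HET 3 were the lowest libraries for the former and the highest for the latter. ENSMAUG00000005154 had 23.2 counts in HET 2, 0.330 in KO 1 and 2.69 to 8.74 in the others. ENSMAUG00000005268 had 6.63 counts in WT 1 and 0.170 to 1.59 in the others.

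Single libraries stood out in part of the genes. In 27 of the 96 (28.1%) a library lay over 2-fold above or below the next, and 21 of these 27 had a mean below 1 CPM. The share of all rows with such a library was not determined, so nothing particular to these genes is read from it. The 3 of at least 10 CPM all deviated in HET 3, which was low in ENSMAUG00000000025 and ENSMAUG00000000009 and high in ENSMAUG00000001628. ENSMAUG00000001628 had 26.9 and 32.7 CPM (WT), 36.9 and 148 (HET), and 57.9, 65.3 and 41.8 (KO). HET 2 and KO 1 each were the highest library for 23 genes (24.0%), against 12.1 and 13.7% of all rows with a count everywhere. HET 3 was the lowest for 27 genes (28.1%), against 15.6% of all rows, and the highest for 7 (7.29%), against 23.1%. These counts are descriptions, since genes that share reads do not count separately.

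The comparison of genotypes asked whether levels in oocytes differed with the loss of MOV10L1. With DESeq2, at a Benjamini-Hochberg adjusted p under 0.01 over all genes tested, none of the 96 genes was called in any of the 4 comparisons. Of all genes tested, 0.508% were called for KO against WT (83 of the 96 tested), 0.234% for KO against HET (96 tested), 0.443% for HET against WT (75 tested) and 0.346% for KO against WT and HET together (68 tested). The selection had used these contrasts, so the absence of calls is a description and nothing is read from it. An unadjusted p under 0.05 was obtained with DESeq2 for 3, 2, 2 and 4 of the 96 genes in these comparisons. Of all genes with a p it was obtained for 7.43, 6.93, 7.44 and 6.70%, and these counts too are descriptions. With edgeR, which called 0.00891, 0.0178, 0.00891 and 0.038% of the genes tested, no shared-read gene was called either.

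Fold changes were centred near 0. The median log2 fold change of the genes tested was 0.09 for KO against WT (0.02 over all genes tested), −0.01 for KO against HET (0.05), 0.13 for HET against WT (0.0041) and 0.06 for KO against WT and HET together (−0.03). Changes beyond 1 on the log2 scale were found for 14 of 83 genes (16.9%) for KO against WT, against 29.8% of all genes tested. For KO against HET they were found for 19 of 96 (19.8%, against 36.9%), and for HET against WT for 5 of 75 (6.67%, against 28.0%). For KO against WT and HET together they were found for 4 of 68 (5.88%, against 16.0%). These shares are not comparable as they stand: the selection required a count in all 7 libraries and removed genes with KO apart, whereas the genes tested include rows without counts in some libraries. The comparisons share libraries, and they are not independent of one another.

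**Figure D4:**
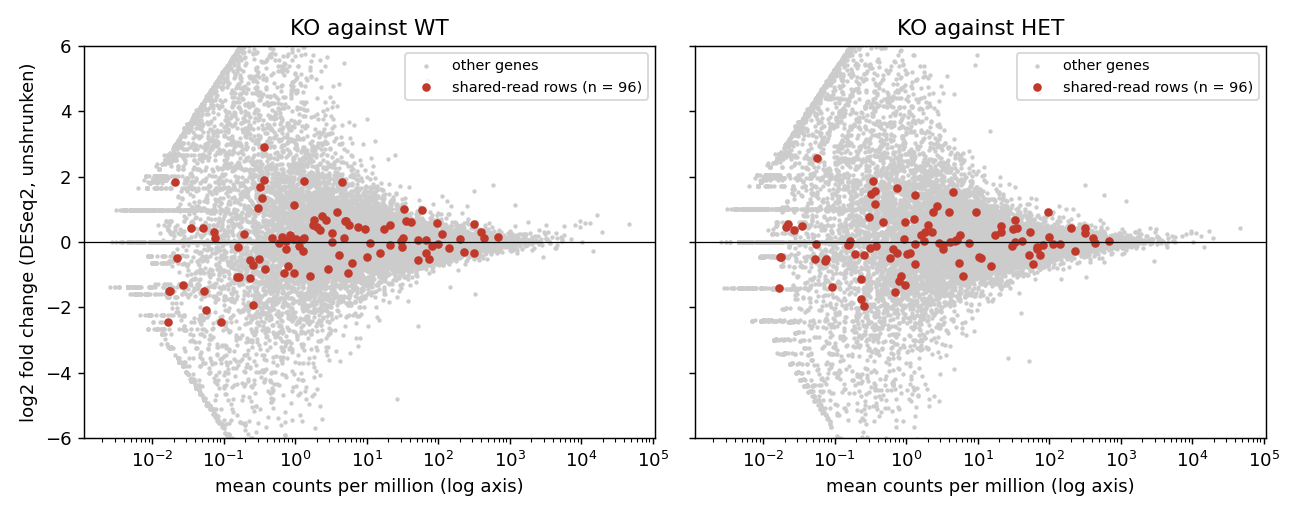
Log2 fold changes (DESeq2, not shrunken) of KO against WT (left) and KO against HET (right) are plotted against the mean CPM (log axis) for the 96 shared-read genes (red) and other genes (grey); 369 and 305 genes beyond 6 on the log2 scale, none of them red, lie outside the frame. The red points scatter around 0, with medians of 0.09 and −0.01 over those tested, and none was called.

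The KO libraries lay entirely beyond the WT and HET libraries in 4 of the 96 genes (4.17%), a pattern found in 684 of the 9800 rows with a count everywhere (6.98%). The selection removed genes in which this gap exceeded 1.4-fold. ENSMAUG00000000003, just inside that limit with a gap of 1.34-fold, had 26.8 and 19.1 CPM (WT), 31.6 and 25.3 (HET), and 47.3, 42.5 and 42.2 (KO). Its means were 23.0 ± 5.48 (WT), 28.4 ± 4.45 (HET) and 44.0 ± 2.82 CPM (KO). ENSMAUG00000018325, which has no description, was the other gene higher in KO, with a gap of 1.11-fold. ENSMAUG00000021079 (1.13-fold) and ENSMAUG00000019345 (1.04-fold) were lower in KO, with 0.995 to 1.08 against 1.22 to 1.74 CPM and 38.3 to 46.9 against 48.7 to 72.8 CPM. The row left out for its gap, ENSMAUG00000009646, had 1.47 and 4.69 counts (WT), 3.67 and 3.86 (HET), and 11.3, 10.8 and 11.2 (KO), a gap of 2.13-fold.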

How the data were processed

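Total RNA of 6 to 12 oocytes per animal was amplified with the Ovation RNA-Seq system V2 and sequenced as single-end 100 nt reads. The authors aligned reads with STAR (version 2.7.3a) to MesAur1.0, allowing at most 20 alignments per read, and counted them over Ensembl release 99 exons with featureCounts (version 2.0.0), without a strand setting and dividing each read among its alignments and overlapping genes. The deposited values are therefore estimated counts, written to 2 decimals. Paralogues, overlapping and antisense genes cannot be separated. Reads copied in amplification were counted as separate reads, since no molecular identifiers were used.

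CPM were computed from column totals. A fractional part was taken as other than 0 or 0.5 when over 0.001 away from both. Estimated counts were rounded to whole numbers and tested with DESeq2 (version 1.42.0; R version 4.3.3; two-sided Wald test, Benjamini-Hochberg adjusted p under 0.01, as in the study's methods), and by quasi-likelihood in edgeR (version 4.0.16, TMM scaling). The joint model of all 7 libraries with genotype as factor, and the rounding, were chosen here. The KO against WT and HET comparison used a model of 2 levels. The tests were checked on simulated data. Libraries came from different animals, and replicate numbers were those of the labels. The authors state that they excluded oocyte libraries of poor quality that were outliers in a principal component analysis. The spreads between animals are therefore those of the libraries that were kept. Alternatives changed the scaling, low-count filter, rounding, threshold, covariates and libraries.

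The members and lists were chosen with earlier results of these data known. Named were the 10 most and 3 least abundant genes, the 5 widest and 3 narrowest ranges over libraries, the groups of matching counts, family members, and any called gene. Genes singled out beyond this rule (Amt, Myh11, ENSMAUG00000016015, ENSMAUG00000017554, ENSMAUG00000005250, ENSMAUG00000004987, ENSMAUG00000001628, ENSMAUG00000000009, ENSMAUG00000008751, ENSMAUG00000006005, ENSMAUG00000000006, those nearest to a limit and the histone rows outside the selection) were chosen after their values were seen. Identifiers were paired with names from the published gene lists of the study, without values. Other fixed markers, such as Zp3 and Gdf9, were not paired with an identifier and were not analysed here.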

Additional observations from a re-analysis of the deposited data

How the results depend on the processing

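None of the 96 genes was called in any of the 4 comparisons with edgeR, other scalings, a low-count filter, rounding down, an adjusted p under 0.05 or age as covariate. The same held when a KO library was left out, but not in every fit without a WT or HET library. Such a fit leaves 1 library of that genotype, which is assumed to vary like the others. The share of all genes called was not determined for these fits, so only log2 fold changes of the genes that stood out are given. Without HET 2, they were 1.48 (ENSMAUG00000000025), 0.72 (ENSMAUG00000000019) and −1.31 (ENSMAUG00000001628) for KO against HET. For HET against WT they were then −1.16 (ENSMAUG00000000025) and 2.28 (ENSMAUG00000001628). Without HET 3, ENSMAUG00000000025 changed in the opposite direction for HET against WT (0.89). Without WT 2, ENSMAUG00000019829 had 0.99 for KO against WT and HET together. Without WT 1, Slc39a1 (ENSMAUG00000018122) rested on 1.33 counts in the remaining WT 2 library, and no fold is given. Replicate numbers are shared by genotypes but name different animals, and the deviations of same-numbered libraries were uncorrelated (−0.026 to 0.080, 5 pairs, 7389 genes). With the replicate number as a block, 0 genes were called in each comparison, and the median log2 fold changes were 0.16, −0.06, 0.19 and −0.0064. Over all alternatives these medians lay between 0.01 and 0.21, −0.07 and 0.31, −0.08 and 0.33, and −0.07 and 0.13, in the same order. Each moved by less than 0.38, the SD of the genes' median log2 CPM between libraries of a genotype. This SD is that of a level, not of a fold change, and exceeds every one of these medians, so even a change of sign stays within it. The medians also rest on different sets of tested genes, from 48 to 96 of them. With median-of-ratios scaling the summed level in WT fell from 3902 to 3716, more than its SD of 73.4, while HET (3754) and KO (3990.2) moved by less than theirs. For the 17 genes under 10 counts in every library, depth limits the differences that could be detected.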
